A study of Homo sapiens with 8 samples.

Results

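Mitotic kinases, spindle checkpoint proteins and kinetochore subunits were followed on a soft and on a stiff substrate in MDA-MB-231, a line from a human triple-negative breast tumour. The members are 59 genes chosen by name, with earlier results of these data known. All 59 of them were measured, among 19775 genes that a probe set with a single gene symbol could name. Where a gene had several probe sets, the one brightest on average across all 8 arrays stood for it. Both groups were the same line in the same serum-containing DMEM/F12 medium for 2 days, so the substrate was the labelled difference; the sources used here do not give its stiffness in pascals. Each group had 4 arrays, 1 for each replica lettered A to D. The labels call the replicas biological but do not describe how cultures were kept apart, and the p-values cover only the spread seen among these arrays. The title asks how mechanical cues act on mutant p53 through mevalonate and RhoA; it names no question about mitosis.

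Entry into mitosis is driven by CDK1 bound to cyclin B, which CDC25 phosphatases switch on, and is followed by Aurora and Polo-like kinases that build the spindle. Kinetochores are protein layers laid on centromeric chromatin that hold chromosomes to spindle microtubules. The spindle checkpoint signals from unattached kinetochores and restrains CDC20, the activator of the anaphase-promoting complex (APC/C), until all chromosomes are attached. Transcripts of most of these genes accumulate in G2 and mitosis and are scarce in resting cells, so they are widely used as a readout of proliferation. In RNA from a whole culture, fewer cells in G2 and mitosis and less RNA per such cell cannot be told apart.

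Values are log2 expression after RMA, the submitters' array summary, which removes any shift common to all genes. A background level of 6.66 was taken from 14 genes expected to be silent in breast cells. The line's mesenchymal markers VIM, CD44, AXL, MSN and CAV1 lay between 13.0 and 14.6, while CDH1 and ESR1 stayed below background, as did PTPRC, CDH5, VWF, PDGFRA and LUM of other cell types. Of 6 luminal and epithelial markers 4 were above background and ERBB3 and KRT19 rose on soft; the list's summed log2 level ranged over 47.53 to 47.84 in the stiff group and 47.88 to 48.29 in the soft group. Of 4 endothelial markers only PECAM1 was above background, and it rose; that list's sum ranged over 22.15 to 22.75 and 22.97 to 23.03. Of 4 leukocyte and 5 fibroblast markers only LYZ and COL1A1 were above background, and none passed the threshold; CD3E is itself among the silent genes and is no check. Of the mesenchymal markers AXL fell by 0.23. The part of these markers in the results below was not tested. The gap between 3′ and 5′ probe sets of the GAPDH control transcript, a sign of RNA integrity, ranged over 0.35 to 0.43 in the stiff group and 0.32 to 0.39 in the soft group. For the ACTB control transcript the gap was larger, at 1.47 to 1.73 in the stiff group and 1.46 to 1.66 in the soft group. The second principal component, with 16.4% of the variance, set stiff A and B apart from stiff C and D.

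Mitotic genes were lower in cells on the soft substrate. Of the 59 members, 32 (54.2%) fell, none rose and 27 did not pass an adjusted p of 0.05 (limma, Benjamini-Hochberg over all probe sets), where 5.93% of all genes fell and 4.39% rose. Unadjusted, 54 members had p under 0.05 downwards and 0 upwards, against 13.7% and 11.3% of all genes. The changes were modest: the median difference over all members was -0.31 on the log2 scale, against 0.01 over all genes, and the members that fell were 1.19-fold to 1.60-fold higher on stiff, with a median of 1.31-fold. Every soft array lay below every stiff array for 38 members, where the same held for 11.2% of all genes. These shares of all genes include 9297 genes above background in neither group, which held for 0 of the members. Shares among genes above background are not given. CDC25B was the only member with a positive difference. The count depended on single arrays: it was 11 without stiff B, 18 without stiff A, 17 without soft A and 18 without soft B. Without stiff C it was 27, without stiff D or soft D 23, and without soft C 39. The median difference stayed between -0.25 and -0.35 in these fits. Shares of all genes called there are not given, and the part of fewer arrays was not tested.

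Array by array, the mean level over the members was 11.02 on stiff A, 11.04 on stiff B, 10.88 on stiff C and 10.89 on stiff D. It was 10.48 on soft A, 10.61 on soft B, 10.76 on soft C and 10.69 on soft D, so the groups did not overlap. The means were 10.96 ± 0.0847 on stiff and 10.63 ± 0.121 on soft (SD, n = 4 each). Soft A held the lowest value of 47 members and soft B that of 11. Stiff B held the highest value of 33 members and stiff A that of 19. Many members thus shared their lowest array, and most had their highest on stiff A or B. Ties within a group went to the earlier letter, and agreement of the full order was not computed.

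**Figure D1:**
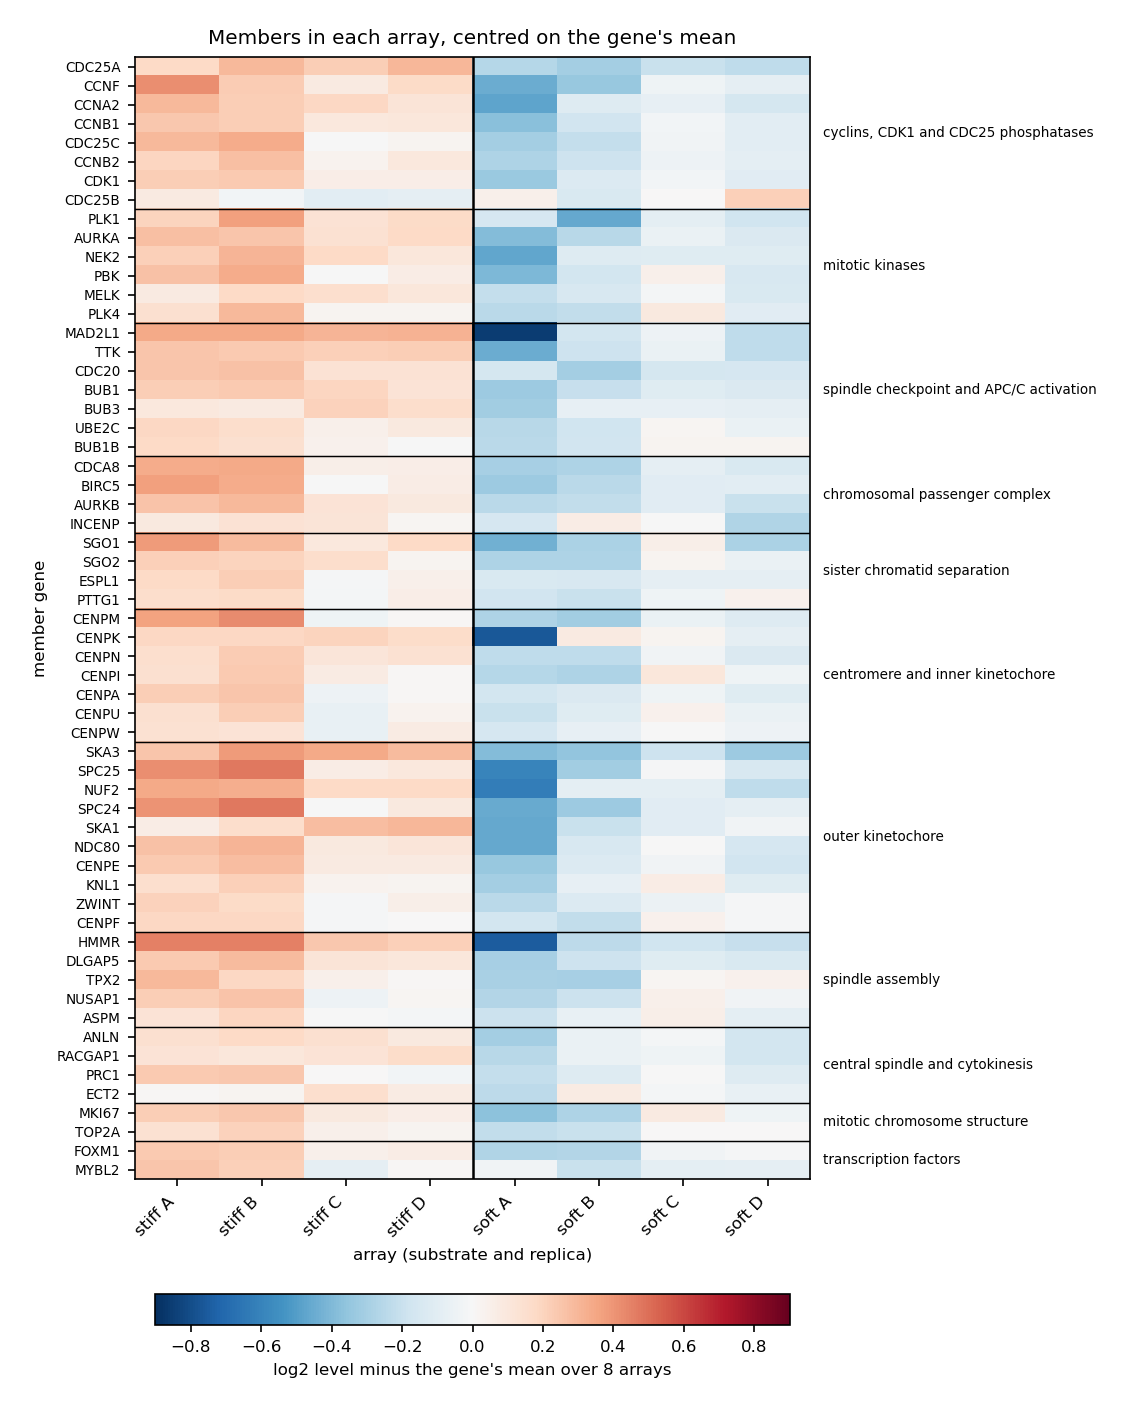
Level of each member (rows, grouped by role) in each of the 8 arrays (columns), as the log2 value minus the gene's mean over the 8 arrays; red is higher and blue lower. Rows are mostly red in the stiff arrays and blue in the soft arrays, with the deepest blue in soft A and the strongest red in stiff A and B.

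The members' promoters were read from RefSeq (GRCh38.p14), which gave 62 promoters for 48 of the 59 genes. Known elements of mitotic promoters were searched on both strands in the 250 bases before each start: the CCAAT box (CCAAT) bound by NF-Y, the cell cycle homology region (CHR; TTTGAA or TTCGAA) bound by MuvB complexes, and the E2F letters TTTCCCGC, TTTCGCGC, TTTGCCGC and TTTGGCGC. None of these motifs contains another. CCAAT was found in 71% of member promoters and 32% of all 35116 promoters in the table, and a CHR in 40.3% and 14.3%. Both occurred together in 35.5% of member promoters and 5.05% of all. The E2F letters were found in 8.06% and 2.79%. Of the 30 promoters of members that fell 73.3% held CCAAT and 36.7% a CHR. Of the 32 promoters of members that did not pass the threshold 68.8% and 43.8% did. Counted by gene, with a match in any promoter, CCAAT was found in 20 of 27 members that fell and 18 of 21 others. A CHR was found in 10 of 27 and 12 of 21. The order for CCAAT thus depended on the unit, and these differences were not tested.

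Shown here are the last 150 bases before the start of 5 members that fell and carry both a CCAAT box and a CHR in this stretch. They are examples: both were found there in 8 of 27 members that fell. The same held for 10 of 21 members that did not pass the threshold, which are not shown. CDC25A is added for its E2F letters, and SKA3, with the smallest adjusted p, as a member with no match in the 250 bases searched. Capitals mark the matches on either strand (CCAAT read from the other strand is ATTGG), which are letters found and not binding sites shown.
CCNB2 (chr15:59104996-59105145, plus strand): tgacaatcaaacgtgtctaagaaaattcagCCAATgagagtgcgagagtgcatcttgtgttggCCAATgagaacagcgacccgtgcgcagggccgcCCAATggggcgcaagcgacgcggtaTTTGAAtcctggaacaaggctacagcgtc
CDC20 (chr1:43358831-43358980, plus strand): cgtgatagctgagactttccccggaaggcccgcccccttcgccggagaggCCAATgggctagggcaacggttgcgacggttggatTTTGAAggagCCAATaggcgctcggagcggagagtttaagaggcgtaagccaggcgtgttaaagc
PLK1 (chr16:23678739-23678888, plus strand): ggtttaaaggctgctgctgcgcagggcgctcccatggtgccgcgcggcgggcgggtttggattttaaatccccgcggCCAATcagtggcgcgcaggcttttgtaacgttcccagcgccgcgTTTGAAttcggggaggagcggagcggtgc
CDCA8 (chr1:37692366-37692515, plus strand): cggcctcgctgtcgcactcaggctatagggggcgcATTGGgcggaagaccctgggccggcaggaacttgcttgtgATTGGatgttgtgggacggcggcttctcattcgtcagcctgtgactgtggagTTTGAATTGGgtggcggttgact
HMMR (chr5:163460482-163460631, plus strand): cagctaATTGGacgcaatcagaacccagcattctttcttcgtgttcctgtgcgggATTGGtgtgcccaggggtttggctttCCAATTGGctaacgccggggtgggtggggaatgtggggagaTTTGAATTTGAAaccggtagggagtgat
CDC25A (chr3:48188418-48188567, minus strand): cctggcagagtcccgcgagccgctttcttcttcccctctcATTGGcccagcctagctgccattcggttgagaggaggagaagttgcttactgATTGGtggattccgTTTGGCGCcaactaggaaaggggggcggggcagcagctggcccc
SKA3 (chr13:21176553-21176702, minus strand): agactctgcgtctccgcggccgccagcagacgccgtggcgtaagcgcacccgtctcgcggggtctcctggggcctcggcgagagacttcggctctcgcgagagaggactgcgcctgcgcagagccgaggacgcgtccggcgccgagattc

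Cyclins, CDK1 and the CDC25 phosphatases, which start mitosis, had 6 of 8 members lower on soft. CDC25A, the phosphatase that also acts at the start of S phase, was at 9.53, 9.64, 9.57 and 9.65 on stiff A to D and at 9.09, 9.04, 9.15 and 9.12 on soft A to D. It fell by 0.50 (SE 0.0597, adjusted p = 0.000926), and its 2 groups were far apart with little spread. CCNF, which encodes cyclin F, an F-box protein that marks proteins for degradation, was at 8.99, 8.80, 8.65 and 8.74 on stiff and at 8.12, 8.23, 8.53 and 8.49 on soft. It fell by 0.45 (SE 0.105, adjusted p = 0.0219), with soft C and D close under the stiff arrays, and lost its call in 6 of 20 settings. CCNB1, the cyclin B1 partner of CDK1, was at 12.70, 12.68, 12.55 and 12.56 on stiff and at 12.08, 12.28, 12.43 and 12.36 on soft. It fell by 0.34 (SE 0.0821, adjusted p = 0.0278) and lost its call in 7 of 20 alternative settings. CDK1 itself was at 12.69, 12.71, 12.53 and 12.53 on stiff and at 12.14, 12.35, 12.45 and 12.37 on soft. The arrays of CDK1 did not overlap either, but its difference of -0.29 (SE 0.0805, adjusted p = 0.0478) lay just inside the threshold and lost its call in 14 of 20 alternative settings. Cyclins A2 (CCNA2) and B2 (CCNB2) fell by 0.41 and 0.30. CDC25C, the phosphatase that activates CDK1 at mitotic entry, differed by -0.33 (adjusted p = 0.0563). CDC25B, which starts CDK1 activation in G2, differed by 0.06 (SE 0.0806, adjusted p = 0.726), with overlapping arrays.

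Of 6 mitotic kinases 4 fell. PLK1, the Polo-like kinase needed for centrosome maturation and spindle assembly, was at 7.43, 7.60, 7.36 and 7.40 on stiff and at 7.08, 6.77, 7.14 and 7.05 on soft. It fell by 0.44 (SE 0.0892, adjusted p = 0.0124); here soft B and not soft A was lowest. AURKA, the Aurora kinase of spindle poles, was at 12.77, 12.75, 12.64 and 12.68 on stiff and at 12.11, 12.25, 12.44 and 12.37 on soft. It fell by 0.42 (SE 0.0784, adjusted p = 0.00853), and its groups were clearly apart. NEK2, a kinase that parts the centrosomes, fell by 0.40, and MELK by 0.26. PBK and the centriole duplication kinase PLK4 differed by -0.33 (adjusted p = 0.0739) and -0.25 (adjusted p = 0.124).

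The spindle checkpoint and the activation of the APC/C held 5 of 7 members that fell. MAD2L1, the MAD2 protein that binds and holds CDC20, was at 11.92, 11.92, 11.88 and 11.89 on stiff and at 10.72, 11.41, 11.53 and 11.35 on soft. The stiff arrays were nearly equal and soft A stood well under the rest. It fell by 0.65 (SE 0.144, adjusted p = 0.0176), and fell by 0.47 without soft A. TTK, the MPS1 kinase at the top of the checkpoint, was at 10.79, 10.77, 10.75 and 10.76 on stiff and at 10.09, 10.35, 10.48 and 10.31 on soft. It fell by 0.46 (SE 0.0800, adjusted p = 0.00599). BUB1, a checkpoint kinase at kinetochores, was at 11.09, 11.10, 11.06 and 10.99 on stiff and at 10.54, 10.66, 10.76 and 10.74 on soft, and it fell by 0.39 (SE 0.0671, adjusted p = 0.00604). In both kinases the 2 groups were clearly apart. CDC20, the target of the checkpoint, was at 12.68, 12.69, 12.56 and 12.56 on stiff and at 12.27, 12.12, 12.27 and 12.28 on soft. It fell by 0.39 (SE 0.0657, adjusted p = 0.00525). BUB3, the partner of BUB1 and BUBR1, fell by 0.27 (adjusted p = 0.0395). UBE2C, the ubiquitin-conjugating enzyme of the APC/C, and BUB1B, which encodes BUBR1, differed by -0.24 (adjusted p = 0.0655) and -0.18 (adjusted p = 0.206).

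The chromosomal passenger complex corrects wrong attachments and then guides cytokinesis, and 3 of its 4 genes fell. AURKB, its kinase, was at 10.14, 10.17, 10.00 and 9.97 on stiff and at 9.64, 9.66, 9.78 and 9.68 on soft, a difference of -0.38 (SE 0.0684, adjusted p = 0.00708). CDCA8 (borealin) was at 10.80, 10.81, 10.52 and 10.53 on stiff and at 10.17, 10.19, 10.39 and 10.33 on soft, a difference of -0.40 (SE 0.0888, adjusted p = 0.0191). BIRC5 (survivin) was at 11.53, 11.50, 11.16 and 11.23 on stiff and at 10.84, 10.92, 11.06 and 11.07 on soft, a difference of -0.38 (SE 0.0961, adjusted p = 0.0309). No array of these 3 genes overlapped between groups, and in all 3 stiff A and B lay above stiff C and D. BIRC5 lost its call in 6 of 20 settings and CDCA8 in 6 of 19. The scaffold INCENP differed by -0.18 (adjusted p = 0.207) and its arrays overlapped.

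Of the genes that hold and release sister chromatids, SGO1 and SGO2 fell and PTTG1 and ESPL1 did not pass the threshold. SGO1, the shugoshin that protects centromeric cohesin, was at 7.95, 7.85, 7.66 and 7.74 on stiff and at 7.13, 7.28, 7.62 and 7.28 on soft. It fell by 0.47 (SE 0.104, adjusted p = 0.0172), and soft C came close to stiff C. SGO2 was at 11.04, 11.03, 10.99 and 10.85 on stiff and at 10.55, 10.55, 10.85 and 10.77 on soft. It was the 1 member that fell (by 0.30, SE 0.0839, adjusted p = 0.0489) with touching arrays, soft C and stiff D being equal, and it lost its call in 13 of 20 alternative settings. Separase (ESPL1) differed by -0.22 (adjusted p = 0.0702) and its inhibitor securin (PTTG1) by -0.19 (adjusted p = 0.162).

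Among centromere and inner kinetochore members 1 of 7 fell, and among outer kinetochore members 7 of 10. These shares cover members only, and the difference between them was not tested. Outside the members, the inner subunits CENPH, CENPL, CENPO and CENPQ fell, and CENPC and CENPT did not pass the threshold. Of further outer kinetochore genes MIS12, DSN1, ZW10 and SPDL1 fell, and NSL1, PMF1, KNTC1, ZWILCH and SKA2 did not pass it. In the inner layer CENPN, which reads the centromeric nucleosome, fell by 0.31 (SE 0.0664, adjusted p = 0.0149). CENPA, the histone H3 variant that marks centromeres, was at 9.25, 9.28, 8.98 and 9.04 on stiff and at 8.86, 8.90, 8.99 and 8.92 on soft. Soft C lay just above stiff C there, and the difference was -0.22 (SE 0.0790, adjusted p = 0.115). CENPM was at 9.86, 9.92, 9.46 and 9.51 on stiff and at 9.22, 9.18, 9.44 and 9.38 on soft, with a difference of -0.38 (SE 0.111, adjusted p = 0.0556). CENPK was at 10.55, 10.55, 10.56 and 10.53 on stiff and at 9.60, 10.44, 10.39 and 10.28 on soft, with a difference of -0.37 (SE 0.153, adjusted p = 0.171). For both, every soft array was below every stiff array, and in CENPK soft A stood far under the other soft arrays. CENPM passed the threshold in 7 of 20 alternative settings, CENPK in 0 of 20 and CENPA in 2 of 19. CENPI, CENPU and CENPW differed by -0.23, -0.16 and -0.14, none past the threshold.

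In the outer layer, SKA3, a subunit of the SKA complex that tracks microtubule ends, had the smallest adjusted p of all members. It was at 9.59, 9.72, 9.68 and 9.62 on stiff and at 8.95, 8.98, 9.15 and 9.01 on soft, and fell by 0.63 (SE 0.0659, adjusted p = 0.000458). Its partner SKA1 fell by 0.40 (adjusted p = 0.0252). All 4 subunits of the NDC80 complex, which binds the microtubule itself, fell. SPC25 was at 9.87, 9.93, 9.52 and 9.55 on stiff and at 8.86, 9.14, 9.44 and 9.31 on soft, a difference of -0.53 (SE 0.132, adjusted p = 0.0297). NDC80 was at 11.83, 11.87, 11.65 and 11.67 on stiff and at 11.10, 11.42, 11.56 and 11.41 on soft, a difference of -0.38 (SE 0.0978, adjusted p = 0.0333). Their arrays did not overlap, although soft C of SPC25 came close to stiff C. NDC80 lost its call in 9 of 20 settings and SPC25 in 6 of 20. NUF2 and SPC24 fell by 0.52 and 0.48. The kinetochore motor CENPE fell by 0.34. KNL1, ZWINT and CENPF, which dock checkpoint and motor proteins, differed by -0.21 (adjusted p = 0.154), -0.21 (adjusted p = 0.113) and -0.18 (adjusted p = 0.202).

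Spindle assembly genes included the member with the largest difference. HMMR, a spindle and hyaluronan receptor protein, was at 10.25, 10.25, 10.04 and 10.01 on stiff and at 9.05, 9.56, 9.62 and 9.59 on soft. It fell by 0.68 (SE 0.123, adjusted p = 0.00697), and fell by 0.55 without soft A, which stood apart from the other soft arrays. DLGAP5, a microtubule-binding protein of the spindle also called HURP, was at 12.33, 12.38, 12.21 and 12.20 on stiff and at 11.80, 11.91, 11.99 and 11.96 on soft. It fell by 0.37 (SE 0.0695, adjusted p = 0.00910), with no overlap. TPX2, which activates AURKA, NUSAP1 and ASPM differed by -0.27 (adjusted p = 0.126), -0.23 (adjusted p = 0.169) and -0.15 (adjusted p = 0.275).

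Of 4 central spindle and cytokinesis genes 2 fell. ANLN, the anillin scaffold of the contractile ring, was at 13.00, 13.04, 13.00 and 12.95 on stiff and at 12.55, 12.80, 12.84 and 12.69 on soft, a difference of -0.28 (SE 0.0726, adjusted p = 0.0365). RACGAP1, which with ECT2 places active RhoA at the cell equator, was at 12.14, 12.12, 12.14 and 12.18 on stiff and at 11.77, 11.96, 11.98 and 11.85 on soft, a difference of -0.26 (SE 0.0649, adjusted p = 0.0327). Both had 4 close stiff arrays and lost their call in 9 of 19 alternative settings. ECT2, the exchange factor for RhoA in cytokinesis, differed by -0.13 (SE 0.0752, adjusted p = 0.355), the smallest negative difference among the members. The microtubule bundler PRC1 differed by -0.23 (adjusted p = 0.114).

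Neither the 2 genes of mitotic chromosome structure nor the 2 transcription factors passed the threshold at their brightest probe set. MKI67, the Ki-67 antigen that coats mitotic chromosomes, was at 10.89, 10.91, 10.76 and 10.73 on stiff and at 10.30, 10.39, 10.75 and 10.63 on soft. Its difference was -0.31 (SE 0.0989, adjusted p = 0.0824), with soft C above stiff D. TOP2A, the topoisomerase that untangles sister chromatids, was at 13.33, 13.40, 13.24 and 13.22 on stiff and at 12.97, 12.99, 13.20 and 13.20 on soft, a difference of -0.21 (SE 0.0771, adjusted p = 0.127). FOXM1, a transcription factor that drives G2 and mitotic genes, was at 10.41, 10.39, 10.22 and 10.24 on stiff and at 9.90, 9.91, 10.14 and 10.16 on soft, a difference of -0.29 (SE 0.0827, adjusted p = 0.0531). In TOP2A and FOXM1 every soft array was below every stiff array, though only just in TOP2A. MYBL2, the B-MYB factor that acts with MuvB before FOXM1, was at 8.84, 8.80, 8.51 and 8.60 on stiff and at 8.56, 8.39, 8.50 and 8.51 on soft, a difference of -0.20 (SE 0.0830, adjusted p = 0.179) with overlap. All 4 of these genes had an unadjusted p under 0.05. FOXM1 passed the threshold in 7 of 19 alternative settings, MKI67 in 4 of 19, TOP2A in 2 of 20 and MYBL2 in 0 of 20.

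**Figure D2:**
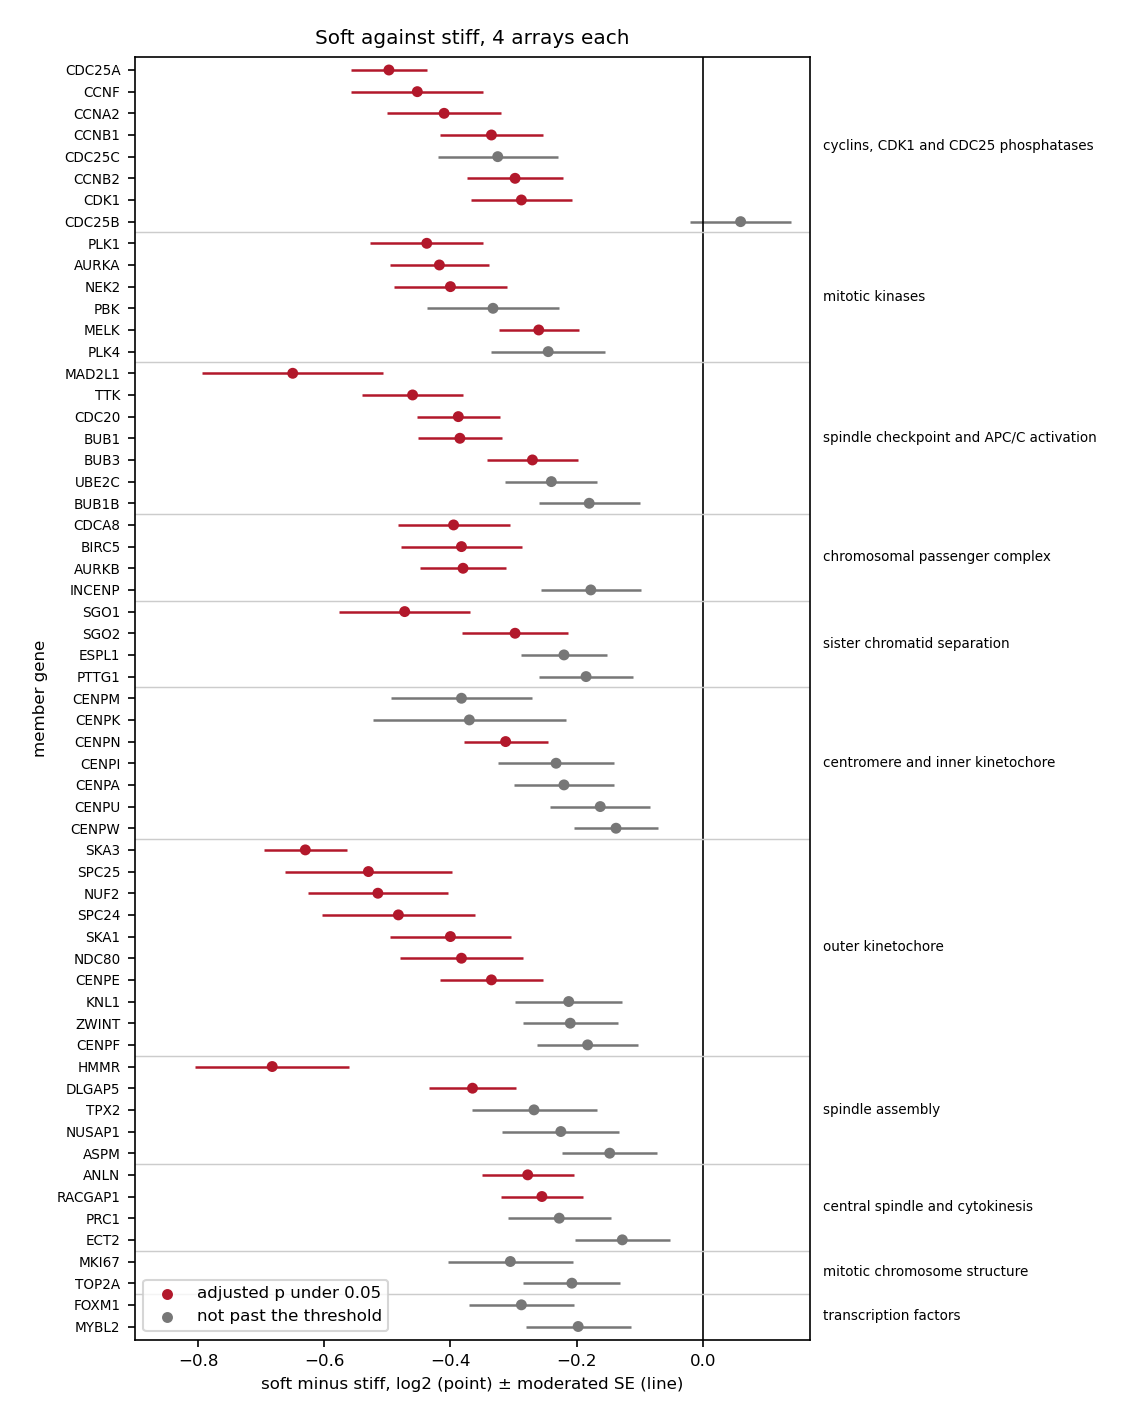
Difference of each member, soft minus stiff on the log2 scale (point), with the moderated standard error (line), grouped by role; red marks the 32 members with an adjusted p under 0.05. All points but that of CDC25B lie left of 0, from -0.13 for ECT2 to -0.68 for HMMR.

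There were 61 further probe sets for 31 members, of which 19 fell, 0 rose and 42 did not pass the threshold. Of all probe sets not chosen for their gene 4.64% fell. Among the 19 that fell for members 17 were above background. A probe set each of AURKA (-0.8125) and CDK1 (-0.845) lay below it. Of the 40 above background, 38 had a negative difference, a sign that 47.6% of all genes had at their chosen probe set; the exceptions were a probe set of AURKB (0.08, adjusted p = 0.698) and a probe set of NUSAP1 (0.21, adjusted p = 0.331). For 5 members not called above, another probe set fell, with differences of -0.66 (ASPM), -0.57 (CENPF), -0.50 (KNL1), -0.43 (MKI67) and -0.35 (PLK4). With these, 37 members had at least 1 probe set that fell, as did 8.74% of all genes. Probe sets of HMMR agreed closely, at -0.68 and -0.69, as did those of CENPN above background, at -0.31, -0.29 and -0.37. Those of BUB3 did not, since 1 of its bright probe sets differed by far less than its standard error of 0.0793 (adjusted p = 0.989).

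The stiff arrays were not uniform for these genes. The mean of stiff A and B was above that of stiff C and D for 54 of 59 members and for 54.4% of all genes, by 0.15 in the mean over members; single arrays did not always follow, as in MELK and SKA3. Fitted against stiff A and B alone, 23 members fell (2.66% of all genes did), with a median difference of -0.37. Fitted against stiff C and D alone, 2 members fell, CDC25A and SKA3 (1.96% of all genes did), with a median of -0.24, and 30 members had an unadjusted p under 0.05 downwards (11.4% of all genes did). These fits share the 4 soft arrays and have 2 stiff arrays each. The sign was negative for 58 members in either fit, and for 50.6% and 45.8% of all genes. CDC25A differed by -0.49 and -0.51 against the 2 pairs and SKA3 by -0.63 and -0.63. SPC24 differed by -0.68 and -0.28, SPC25 by -0.71 and -0.35, CENPM by -0.59 and -0.18, and MYBL2 by -0.33 and -0.07. A larger drop against stiff C and D was seen in CDC25A, BUB3, SKA1, ECT2 and RACGAP1.

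**Figure D3:**
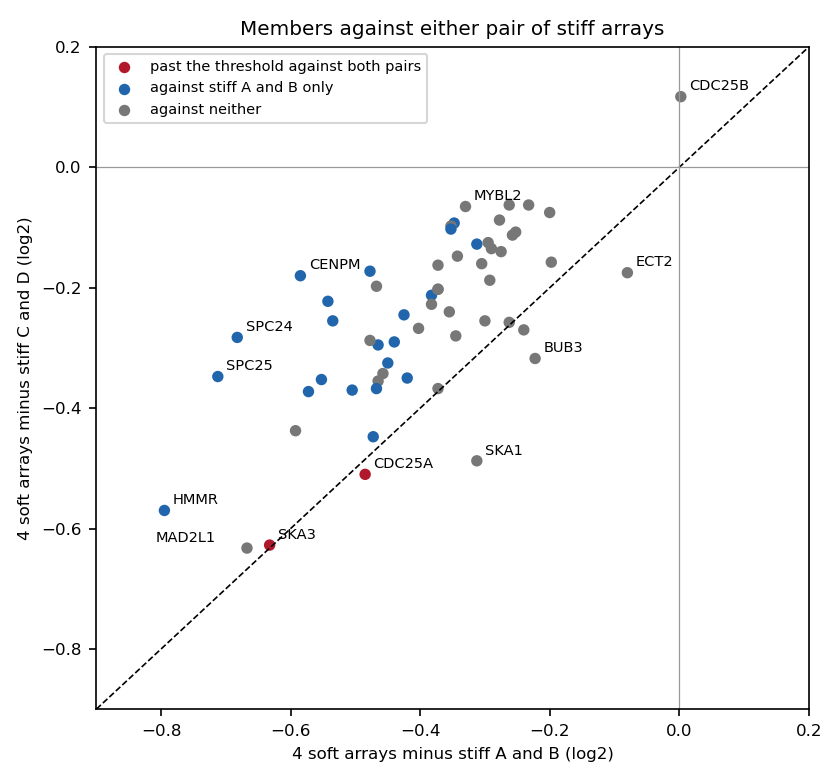
Difference of each member between the 4 soft arrays and stiff A and B (x axis) or stiff C and D (y axis), both in log2; the dashed line marks equal differences. Of the 59 points, 54 lie above the line, meaning a larger drop against stiff A and B, and the 2 red points, CDC25A and SKA3, are past the threshold against both pairs.

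Further lists, also chosen with earlier results of these data known, were tested in the same fit. The first held 54 other genes of the pathway, mitosis genes that are not members. Of 51 measured 26 fell, none rose and 25 did not pass the threshold, with a median of -0.26 (39 lower and 1 higher at an unadjusted p under 0.05). The largest falls were those of MIS18A, which licenses CENPA loading (-0.56, SE 0.0964, adjusted p = 0.00593), CDCA3 (-0.53) and the inner kinetochore subunit CENPQ (-0.53). Of 44 measured G1/S and DNA replication genes 21 fell and none rose (32 and 0 unadjusted), with a median of -0.27, led by CDT1 (-0.59), MCM10 (-0.53) and CCNE2 (-0.51). Both counts depended on single arrays. For the other mitosis genes the count was 15 without stiff A, 11 without stiff B, 14 without soft A, 13 without soft B and 17 without soft D. For the G1/S genes it was 12 without stiff A, 8 without stiff B and 11 without soft B. Without soft C the counts were 27 and 26. Shares of all genes called in these fits are not given. The array means of both lists ranked soft A lowest and stiff B highest, as in the members. Promoters of the G1/S list held CCAAT in 58.2%, a CHR in 5.45% and the E2F letters in 29.1% of cases. Among 17 measured CDK inhibitors and RB/DREAM genes, many of which restrain the cycle or repress its genes, 2 fell and 2 rose. Of all genes 5.93% fell and 4.39% rose. These 4 calls were 2 without stiff B, stiff D or soft D, and 1 against either pair of stiff arrays. The MuvB subunit LIN52 and E2F5 fell by 0.39 and 0.37. The CDK inhibitor CDKN1A rose by 0.56 (SE 0.0766, adjusted p = 0.00184) and CCNG2, an atypical cyclin of resting cells, by 0.23 (SE 0.0649, adjusted p = 0.0472). The inhibitor CDKN1B differed by -0.03 (adjusted p = 0.891) and the RB gene RB1 by -0.14 (adjusted p = 0.417).

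**Figure D4:**
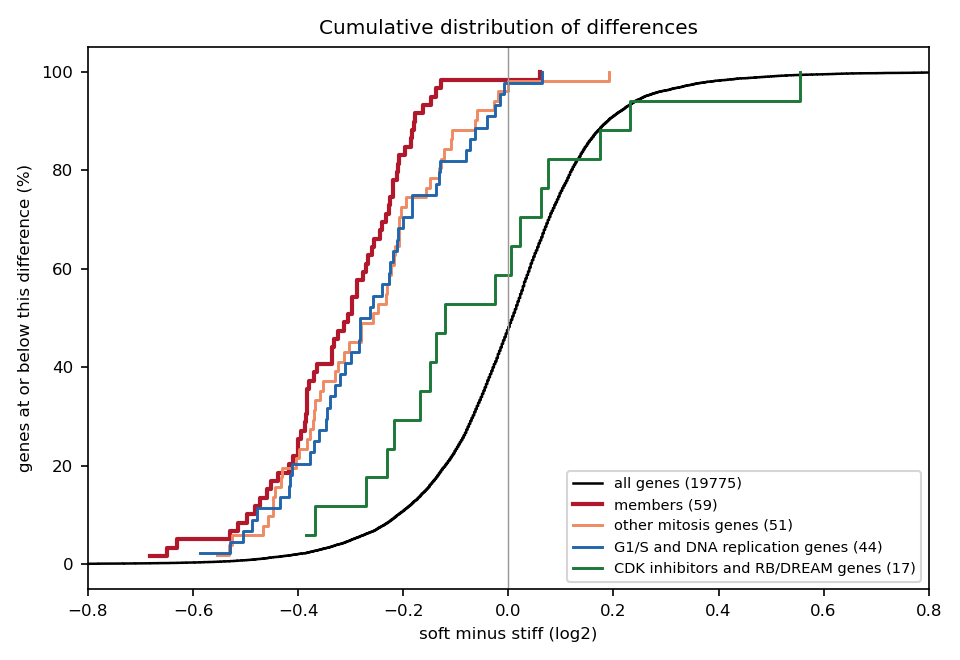
Cumulative share of genes (%) at or below each soft minus stiff difference (log2), for all 19775 genes, the 59 members and 3 further lists. The curves of the members, the other mitosis genes and the G1/S genes run left of that of all genes, with medians of -0.31, -0.26 and -0.27 against 0.01.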

How the data were processed

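Total RNA of 8 cultures was hybridised to Affymetrix arrays. The values the authors deposited are log2 expression, 1 per probe set and array, made with RMA per the submitters' processing notes; software, version and genome build are not given in the sources used here, and the log2 scale was read from the values. Of 54675 probe sets, 62 manufacturer controls were left out. Names came from the platform annotation, updated by gene identifier to RefSeq. The 2 groups were fitted in limma (version 3.58.1, R 4.3.3; lmFit and eBayes, two-sided) over 54613 probe sets, with Benjamini-Hochberg adjustment, a threshold of 0.05 and no filter; the procedure was also tested on simulated data. The background level is the 0.95 quantile of the means of 14 silent genes. Members and lists were chosen with earlier results of these data known. Array values are given for the 2 members per role with the largest difference, 13 members chosen by name, and any member that rose or lay below background in both groups (0 met this); other lists by up to 3 genes with the largest change each way. CDKN1B, RB1, the kinetochore genes named outside the members, and the probe sets and stiff pair values given as examples were chosen after their values were seen. Alternatives covered normalization, filters, variance models, array weights, probe set rules, thresholds, the stiff pairs and leaving out each array. The number of arrays limits the precision.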

Additional observations from a re-analysis of the deposited data

Results flagged for a closer look

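Each group of 4 arrays of the members given array by array, and the mean over all members, was checked for an array far from its fellows (by Dixon's critical value for 4 samples), in 60 groups; chance alone flags about 1 group in 20, and 2 were found. CDC20 on soft B, at 12.12, lay under the other soft arrays, which were at 12.27 to 12.28. HMMR on soft A, at 9.05, lay under the others at 9.56 to 9.62.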

How the results depend on the processing

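The 29 members given array by array kept a negative difference in each of the 20 alternative fits that measured them, and 0 members rose in any. The sign was in part fixed beforehand and is no independent check. The replicate block, the level filters and the variance model cannot change a difference. Where the groups do not overlap, leaving out arrays cannot change its sign. Counts moved more. The members that fell numbered 17 with the replicate block (26 to 43 with other normalizations, filters, variance models, weights or probe set rules), 9 at an adjusted p under 0.01, 23 against stiff A and B alone, 2 against stiff C and D alone, and 11 to 39 when 1 array was left out. Of the other mitosis genes 8 fell at 0.01, 13 without probe sets marked for shared probes, 13 against stiff A and B alone, 3 against stiff C and D alone, and 11 to 27 with 1 array left out. For the G1/S genes these were 4, 11, 11, 2, and 8 to 26. Of the CDK inhibitors and RB/DREAM genes 4 passed the threshold, 7 above background, 1 at 0.01, 1 without shared probes, 1 against either pair of stiff arrays, and 2 to 4 with 1 array left out. The cause was not tested, other than fewer samples or probe sets in some fits. Replica letters showed no pairing in the values (correlations of deviations 0.12, -0.12, 0.05 and -0.04 for A to D). Of 8 arrays 2 correlated best with their own letter. Such correlations cannot exclude that cultures of the same letter were run together.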
